A study of Mus musculus with 5 samples.

Results

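Cardiac macrophage genes were followed in heart RNA of diabetic Akita mice and of wild type mice. The set held 10 genes, named Cd68, Cd163, Mrc1, Adgre1, Csf1r, Lyz2, C1qa, C1qb, C1qc and Cd207, of the 22180 genes with a probe set assigned to them alone. Where a gene has several probe sets, the brightest over all 5 arrays stands for it, and here each of the 10 genes had 1 probe set. The genes were picked by name, with an earlier result for Cd68 and Cd207 in these arrays already known, so the differences of these 2 genes between the groups are descriptions. All 10 passed the filter on dim genes, a mean log2 signal of at least 4.06 over the 5 arrays, which left 15528 genes for testing.

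The study compared 3 wild type hearts (replicates 3, 4 and 5) with 2 Akita hearts (replicates 1 and 3), all from male C57BL/6 mice aged 12 weeks. Akita mice, given as Ins2+/-, carry a mutation in the Insulin 2 gene on that same background and serve as a model of type 1 diabetes. In this model a misfolded insulin harms the cells that make it, and the mice become diabetic without any drug. The labels give heart tissue without naming the chamber, and they do not say whether each array came from its own animal. The p-values therefore measure only how these samples vary, which may be in part technical. Values are log2 signals of a microarray, in which a step of 1 is a doubling. Signals of different probe sets cannot be ranked against each other, because each probe set binds its transcript with its own efficiency.

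Macrophages are the most plentiful immune cells of the resting heart, where they clear debris, take up material shed by muscle cells and help to keep conduction and vessels in order. Most of those in the adult heart renew themselves in place, under the growth factor CSF1, and others come from blood monocytes. They carry scavenger and lectin receptors for cargo, lysosomes to digest it, and make the C1q protein that starts the classical complement pathway and tags dying cells for uptake.

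The start regions of 4 of the genes are shown because Cd68, C1qb and C1qc lay lower in both Akita arrays, while Cd207 lay higher in both. Each is the stretch of 250 bases before the RefSeq gene start in GRCm38.p6, read 5′ to 3′ on the strand of the gene. Capitals mark GAGGAA or its reverse complement, the core of the purine box bound by PU.1, the master transcription factor of macrophages.
Cd68, chr11:69666171-69666420, minus strand: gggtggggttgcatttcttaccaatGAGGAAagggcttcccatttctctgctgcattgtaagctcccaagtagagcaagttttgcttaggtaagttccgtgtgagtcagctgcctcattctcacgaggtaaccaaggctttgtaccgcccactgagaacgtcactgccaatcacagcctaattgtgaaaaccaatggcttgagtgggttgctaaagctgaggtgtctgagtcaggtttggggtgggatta
C1qb, chr4:136886201-136886450, minus strand: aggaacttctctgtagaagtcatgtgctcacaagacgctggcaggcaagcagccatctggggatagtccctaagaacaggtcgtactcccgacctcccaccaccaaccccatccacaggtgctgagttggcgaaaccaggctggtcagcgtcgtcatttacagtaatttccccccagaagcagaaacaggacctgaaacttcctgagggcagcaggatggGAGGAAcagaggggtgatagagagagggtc
C1qc, chr4:136892915-136893164, minus strand: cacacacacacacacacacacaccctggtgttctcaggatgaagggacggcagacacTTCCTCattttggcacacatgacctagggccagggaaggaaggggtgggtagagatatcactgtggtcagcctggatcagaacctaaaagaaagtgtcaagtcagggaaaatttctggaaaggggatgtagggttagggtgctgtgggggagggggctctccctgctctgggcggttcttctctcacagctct
Cd207, chr6:83677858-83678107, minus strand: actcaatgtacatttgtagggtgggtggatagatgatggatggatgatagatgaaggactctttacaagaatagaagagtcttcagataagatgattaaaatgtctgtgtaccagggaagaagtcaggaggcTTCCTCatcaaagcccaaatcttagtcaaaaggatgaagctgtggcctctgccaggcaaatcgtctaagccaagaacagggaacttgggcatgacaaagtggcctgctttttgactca
RefSeq windows were matched for 7 of the 10 genes, all but Adgre1, Csf1r and C1qa. GAGGAA, searched on both strands, occurred in 5 of the 7 (Mrc1, C1qb, C1qc, Cd207 and Cd68), where 23.3% of all 32851 windows hold it. The E-box letters CACGTG, bound by the MiT family that drives lysosomal genes, occurred in 0 of the 7 and in 6.02% of all windows. The C/EBP core TTGCNNAA occurred in Cd68 alone, as TTGCTAAA from 43 to 36 bases before the start, and in 9.56% of all windows. A match of letters is a description and not a binding site. Mrc1, whose group means did not differ, held GAGGAA 3 times.

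The study set Akita against wild type hearts to characterise the diabetic heart by its transcripts. Among the macrophage genes Cd68 and the 3 C1q chains lay lower in both Akita hearts, the receptors Mrc1, Cd163 and Csf1r and the lysozyme gene Lyz2 overlapped between the groups, and Cd207 lay higher. None of the 10 passed an adjusted p of 0.05 by limma with Benjamini-Hochberg adjustment over the 15528 genes, where 0.328% of all genes did. At an unadjusted p under 0.05 there were 5 of the 10, 4 lower and 1 higher, where 13.6% of all genes reached that level, 9.49% lower and 4.13% higher. The count of 5 was 3 without wild type replicate 3, 4 or 5, where the share of all genes at that level was not counted. Without Akita replicate 1 the median difference over the 10 genes was -0.035, beside -0.013 over all genes tested. Without Akita replicate 3 it was -0.373, beside -0.070. The Akita mean was lower in 6 of the 10 genes, as in 56.4% of all genes. The groups did not overlap in 6 of the 10 (29.7% of all genes): in 5 both Akita arrays lay under all wild type arrays (19.9%) and in 1 above them (9.89%). The median log2 difference over the 10 genes was -0.20, beside -0.03 over all genes tested. With quantile normalization again it was -0.11, beside 0.0017 over all genes tested. With arrays centred on the median of the genes tested it was also -0.11, beside 0.0625 over all genes tested. In whole tissue, fewer macrophages and less transcript per macrophage cannot be told apart.

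**Figure D1:**
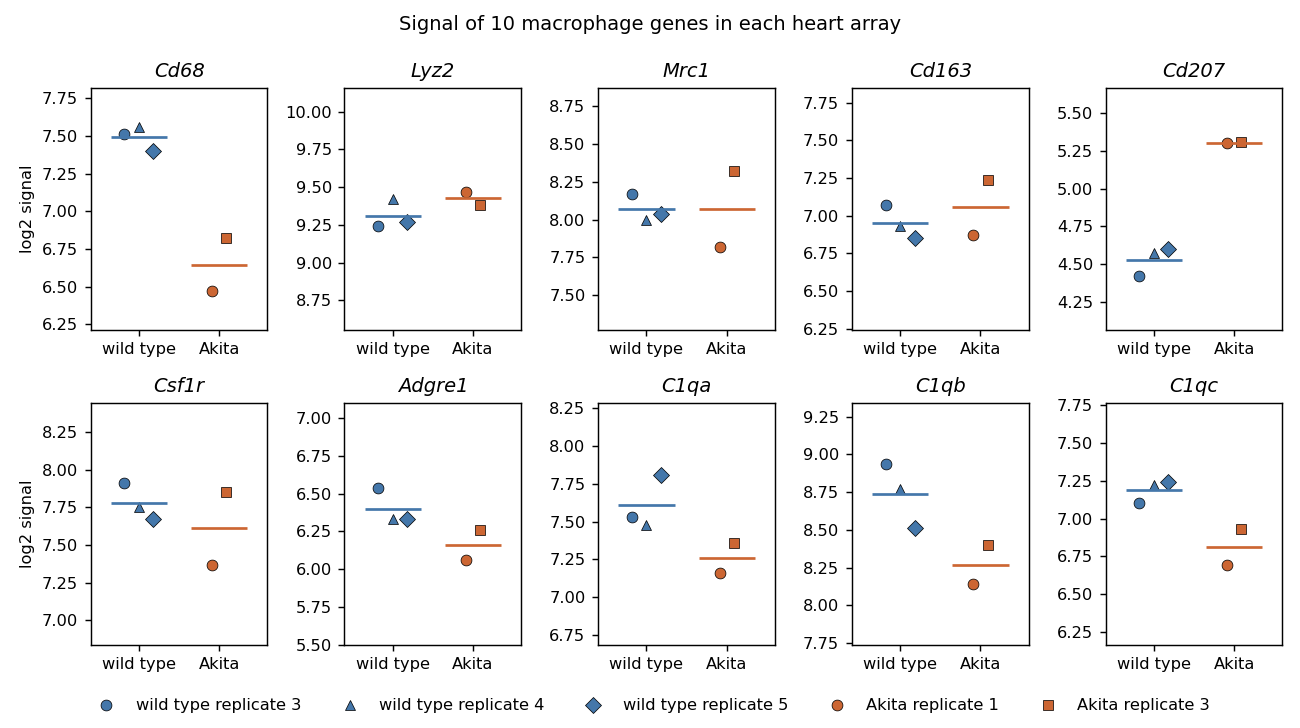
Log2 signal of the 10 genes in each of the 5 arrays, wild type in blue and Akita in orange, with 1 symbol for each array and a line at the group mean; every panel spans the same number of log2 units. Both Akita arrays sit below all wild type arrays for Cd68, Adgre1, C1qa, C1qb and C1qc and above them for Cd207.

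Cd68 encodes a heavily glycosylated protein of the lysosomal and endosomal membrane, related to the LAMP proteins and used widely to stain macrophages. Its log2 signal was 7.51, 7.56 and 7.4 in wild type replicates 3, 4 and 5, and 6.47 and 6.82 in Akita replicates 1 and 3. The groups did not overlap, and the gap between them, 0.58, was wider than the range within the wild type arrays (0.16) or the Akita arrays (0.35). The means were 7.49 ± 0.08 (SD, n = 3) and 6.64 ± 0.25 (SD, n = 2), a log2 difference of -0.84 (SE 0.14, 95% interval -1.17 to -0.52, adjusted p = 0.0773 by limma), or a wild type signal 1.8-fold that of Akita. The adjusted p was 0.0204 when limma's prior was fitted robustly with an intensity trend, and it ran from 0.0204 to 0.350 over the alternatives. Its unadjusted p ranked 77th among the genes tested.

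Cd68 was also set against the other macrophage genes within each array, which leaves out a shift shared by all genes of an array. A shift that differs between dim and bright genes stays in. Its log2 signal minus the mean of the other 9 genes was 0.07, 0.17 and 0.03 in the wild type arrays and -0.74 and -0.63 in Akita replicates 1 and 3. This spacing thus differed by -0.78 between the groups, against a range of 0.14 within wild type. Taken against each of the 9 genes singly, the Akita values lay under all wild type values every time, with the smallest difference against C1qb (-0.38) and the widest against Cd207 (-1.62). The comparison carries no test, because Cd68 was picked with its difference known, as was Cd207, which stands among the 9.

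C1qa, C1qb and C1qc encode the A, B and C chains that assemble into C1q, and lie side by side on chromosome 4. C1qb lay at 8.94, 8.77 and 8.51 in the wild type arrays and at 8.14 and 8.40 in Akita replicates 1 and 3. C1qc lay at 7.10, 7.22 and 7.24 against 6.69 and 6.93. C1qa lay at 7.53, 7.48 and 7.81 against 7.16 and 7.36. In all 3 chains Akita replicate 1 was the lowest array and Akita replicate 3 the next, with gaps of only 0.11, 0.17 and 0.12 to the nearest wild type array. Their log2 differences were -0.47 (C1qb, SE 0.16), -0.38 (C1qc, SE 0.12) and -0.35 (C1qa, SE 0.14), with 95% intervals of -0.84 to -0.10, -0.66 to -0.09 and -0.68 to -0.02. The adjusted p was 0.285, 0.272 and 0.348 by limma, so no chain passed. With each array left out in turn the 3 chains stayed lower, between -0.60 and -0.34 for C1qb, -0.50 and -0.26 for C1qc, and -0.45 and -0.24 for C1qa.

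Adgre1 encodes F4/80, the classical surface antigen of mouse macrophages. It lay at 6.54, 6.33 and 6.33 in the wild type arrays and at 6.06 and 6.26 in Akita replicates 1 and 3, a gap of 0.07. That gap was narrower than the range within either group, and the log2 difference was -0.24 (SE 0.13, adjusted p = 0.462 by limma). Csf1r encodes the receptor for CSF1 and IL-34, which macrophages need to survive. Its signal was 7.91, 7.75 and 7.67 in wild type, and 7.37 and 7.85 in Akita replicates 1 and 3. Akita replicate 1 was the lowest of the 5 arrays and Akita replicate 3 lay within the wild type range (log2 difference -0.17, SE 0.16, adjusted p = 0.701). Without Akita replicate 1 the difference was 0.073, in the other direction.

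Mrc1 and Cd163 mark the resident kind of cardiac macrophage. Mrc1 encodes the mannose receptor CD206, a C-type lectin that takes up sugar-bearing proteins, and Cd163 the receptor that clears haemoglobin bound to haptoglobin. Mrc1 lay at 8.17, 8.0 and 8.04 in wild type and at 7.82 and 8.32 in Akita replicates 1 and 3, so the 2 Akita arrays stood on either side of wild type. Cd163 lay at 7.07, 6.93 and 6.85 against 6.87 and 7.24, with Akita replicate 3 the highest of the 5 arrays. The log2 difference was 0.00 for Mrc1 (SE 0.16, 95% interval -0.38 to 0.38, adjusted p = 1.0 by limma) and 0.10 for Cd163 (SE 0.14, 95% interval -0.23 to 0.44, adjusted p = 0.798). Differences within those intervals were not excluded for either gene. Cd163 differed by -0.08 without Akita replicate 3, and Mrc1 by -0.25 without it and 0.25 without Akita replicate 1.

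Lyz2 encodes the lysozyme of macrophages and neutrophils, which cuts bacterial cell walls. It lay at 9.24, 9.42 and 9.27 in wild type and at 9.47 and 9.38 in Akita replicates 1 and 3, and the groups overlapped. The log2 difference of 0.12 (SE 0.11, 95% interval -0.15 to 0.38, adjusted p = 0.705 by limma) was within the range of the wild type arrays, 0.18. Lyz1, its near-identical neighbour, has a probe set of its own, and signal shared between the 2 genes cannot be assigned.

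Cd207 encodes langerin, a C-type lectin that forms the Birbeck granules of Langerhans cells in skin and is found on some dendritic cells. It is no classical marker of cardiac macrophages. Its signal was 4.42, 4.57 and 4.6 in wild type, and 5.30 and 5.31 in Akita replicates 1 and 3. Both Akita arrays lay above all wild type arrays, with a gap of 0.70 against a range of 0.18 within wild type, and the difference was 0.78 on the log2 scale (SE 0.11, 95% interval 0.51 to 1.04, adjusted p = 0.0532 by limma). The adjusted p was 0.0421 with an intensity trend and a robust prior, and it ran from 0.0421 to 0.262 over the alternatives. It was 0.0498 when all probe sets of a gene were averaged, which left the values of Cd207, with its 1 probe set, unchanged. The wild type signal was close to the median over all probe sets of those arrays, 4.53 to 4.62, so the gene was dim, and a filter at the 50th percentile of mean signal removed it.

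**Figure D2:**
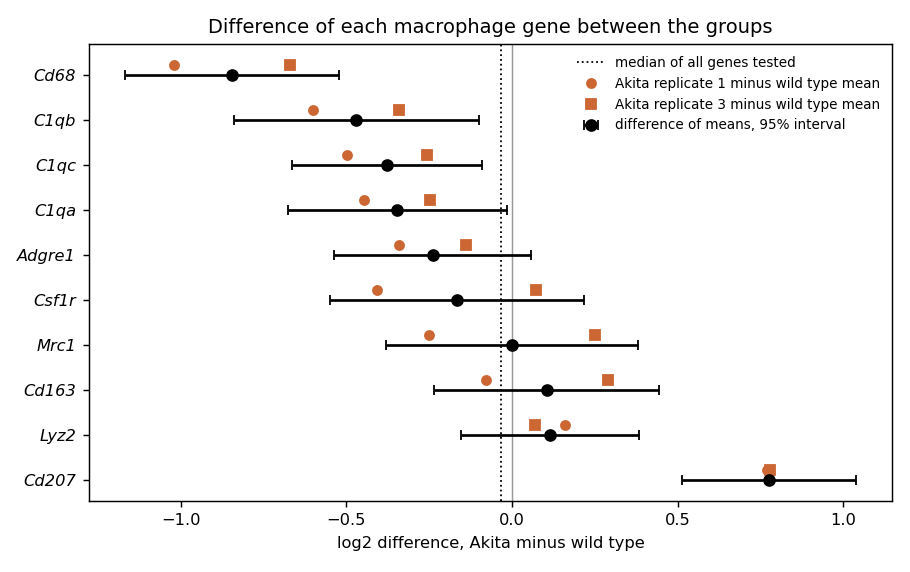
Log2 difference of each gene, Akita minus wild type (black points, with 95% intervals of the limma fit), and the value of each Akita array minus the wild type mean (orange circle for replicate 1, square for replicate 3). The dotted line is the median over all genes tested, -0.03; Cd68 lies at -0.84 and Cd207 at 0.78, and Mrc1, Cd163 and Lyz2 have intervals that include 0, as have Csf1r and Adgre1.

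The 2 Akita arrays differed from each other in these genes. Over the 10 genes the median difference from the wild type mean was -0.37 in the first Akita array, replicate 1, and -0.035 in replicate 3, beside -0.070 and -0.013 over all genes tested. Akita replicate 1 lay under the wild type mean in 8 of the 10 genes and replicate 3 in 5. The range between the Akita arrays was wider than that of the wild type arrays in 5 of the 10 genes, most of all in Mrc1 (0.5 against 0.17). The 5 genes lower in both, Cd68, C1qa, C1qb, C1qc and Adgre1, were each lower in replicate 1. The median log2 signal over the genes tested was 6.18 in Akita replicate 1, 6.33 in replicate 3 and 6.30 to 6.37 in the wild type arrays. Over all probe sets, dim ones included, the order was the other way, with a median of 4.71 in Akita replicate 1, 4.6 in replicate 3 and 4.53 to 4.62 in wild type. When every array was centred on the median of the genes tested, Cd68 differed by -0.75 and C1qb, C1qc and C1qa by -0.38, -0.28 and -0.25. The median over all genes tested was then 0.0625. Within the list, the root mean square distance over 5 arrays between profiles, each centred on its own mean, was smallest for Cd163 and Mrc1 (0.077), Csf1r and Mrc1 (0.092), Adgre1 and Csf1r (0.099) and C1qa and C1qc (0.10). C1qb lay nearer to Adgre1 (0.145) and Csf1r (0.177) than to C1qc (0.186) or C1qa (0.249). Cd68 was nearest to C1qb (0.21) and Cd207 nearest to Lyz2 (0.33).

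By the same distance, over 5 arrays, the genes most like Cd68 among all genes tested were Nkx2-5 (0.073), Fxyd5 (0.084), Pla2g4e (0.085), Neat1 (0.09) and Ntsr2 (0.091). Nkx2-5 is a transcription factor of heart muscle cells and Neat1 a long non-coding RNA, and none of the 5 stands in a list of macrophage genes used here. Nkx2-5 lay at 8.83, 8.86 and 8.69 in wild type and at 7.93 and 8.26 in Akita replicates 1 and 3. The genes most like Cd207 were 2610042L04Rik (0.061), Gm10354 (0.062), Gm3173 (0.071), Olfr1449 (0.073) and Olfr609 (0.094), which are gene models without a known role and olfactory receptors.

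Genes that make and keep macrophages lay lower in 8 of 11 tested cases (median -0.16), where 56.4% of all genes did, with 0 past the adjusted threshold of limma. Of them 3 reached an unadjusted p under 0.05, all lower (9.49% of all genes), and 5 lay wholly lower (19.9% of all genes). Csf1, the growth factor itself, lay at 8.04, 8.22 and 8.14 in wild type and at 7.62 and 7.82 in Akita replicates 1 and 3 (log2 difference -0.41, adjusted p = 0.233). Spi1, which encodes PU.1, lay at 6.00, 5.87 and 5.83 against 5.51 and 5.74 (-0.28, adjusted p = 0.389). The other genes of smallest p were the oxysterol receptor gene Nr1h3 (-0.34) and the blood transcription factor gene Runx1 (-0.34), with adjusted p = 0.275 and 0.3. In each of the 4 genes both Akita arrays lay under all wild type arrays. With Akita replicate 1 left out, 7 of the 11 genes lay lower (median -0.073). Wholly under the wild type range were 5 of the 11, where 29.5% of all genes then were. With Akita replicate 3 left out, 9 of the 11 genes lay wholly under the wild type range, where 43.4% of all genes then did. The other 2 lay wholly above it, as did 3793 of the 15528 genes.

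Genes shared by all myeloid cells lay lower in 12 of 15 (median -0.25), where 56.4% of all genes did, with 0 past the adjusted threshold. Of the 15, 4 reached an unadjusted p under 0.05, all lower (9.49% of all genes). Wholly lower were 4 of the 15 (19.9% of all genes). Fcer1g, the signalling chain shared by Fc receptors, lay at 8.27, 7.81 and 7.95 in wild type and at 7.0 and 7.3 in Akita replicates 1 and 3. Its log2 difference of -0.86 (SE 0.17, adjusted p = 0.125 by limma) was of the size of that of Cd68. The adaptor gene Tyrobp (-0.52), the Fc receptor gene Fcgr3 (-0.54) and Cyth4 (-0.45) did not overlap between the groups either, with adjusted p = 0.210, 0.228 and 0.3. The list median was -0.073 when Akita replicate 1 was left out and -0.39 when Akita replicate 3 was.

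Markers of resident cardiac macrophages lay lower in 5 and higher in 9 of 14 genes (median 0.06), with 0 past the adjusted threshold, 2 lower and 1 higher at an unadjusted p under 0.05. Ms4a7, a membrane gene of macrophages, lay at 5.05, 5.14 and 5.25 in wild type and at 4.42 and 4.66 in Akita replicates 1 and 3 (-0.61, adjusted p = 0.138). Cbr2, a carbonyl reductase gene, lay at 8.45, 8.26 and 8.06 against 7.62 and 7.67 (-0.61, adjusted p = 0.162). In the other direction, the fractalkine receptor gene Cx3cr1 lay at 6.43, 6.12 and 6.33 against 6.61 and 6.74 (0.38, adjusted p = 0.291). The chemokine gene Ccl24 overlapped (-0.26, adjusted p = 0.463). Without Akita replicate 3 the list turned to 9 of 14 lower, with a median of -0.10.

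Monocyte markers were mixed, with 2 of 7 tested genes lower (median 0.08) and 0 past the adjusted threshold. Ly6c2, the surface antigen of inflammatory monocytes, differed by -0.43 (adjusted p = 0.242), with its groups apart, and was the 1 gene at an unadjusted p under 0.05. Ccr2, the chemokine receptor that brings monocytes into the heart, lay at the edge of the filter, at 4.22, 4.07 and 3.99 in wild type and 4.13 and 4.33 in Akita replicates 1 and 3. Ace, also carried by endothelium, differed by -0.25 and Treml4 by 0.15, with adjusted p = 0.460 and 0.647. Without Akita replicate 3 the list had 4 of 7 lower (median -0.017).

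Cd68 is a lysosomal protein, yet other lysosomal genes lay to either side, and their direction turned with the scaling. Of 23 tested membrane proteins and hydrolases 12 lay lower and 11 higher (median -0.02), with 0 past the adjusted threshold, 2 lower and 1 higher at an unadjusted p under 0.05. The protease genes Ctsd, at 11.77, 11.79 and 11.76 in wild type against 11.54 and 11.45, and Ctsa differed by -0.28 and -0.38 (adjusted p = 0.318 and 0.260). Scarb2, a lysosomal membrane gene, lay higher at 10.21 and 10.13 against 9.65, 9.67 and 9.84 (0.45, adjusted p = 0.193). Gpnmb, a gene of lipid-laden macrophages, lay at -0.30 (adjusted p = 0.419). Of the 23 genes, 7 lay lower with quantile normalization again (median 0.045) and 5 with arrays centred on the median of the genes tested (0.074). The medians over all genes tested were then 0.0017 and 0.0625. The count of lower genes in the list was 16 without Akita replicate 3 and 8 without Akita replicate 1.

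Around C1q, other complement genes lay higher more often than lower, without a call. Of 10 tested components, regulators and receptors 3 lay lower and 7 higher (median 0.04; 5 and 5 with arrays centred on the median of all genes), 0 passed the adjusted threshold, and 0 reached an unadjusted p under 0.05. C4b, the next component cut in the classical pathway, lay at 5.93, 6.19 and 5.47 in wild type and 5.94 and 6.74 in Akita replicates 1 and 3 (0.48, adjusted p = 0.499). Cd59a, a shield against the attack complex, differed by 0.18, the anaphylatoxin receptor gene C3ar1 by -0.21 and C1qbp by -0.10, with adjusted p = 0.721, 0.727 and 0.738. The list had 5 of 10 lower without either Akita array, with a median of 0.077 without replicate 1 and -0.03 without replicate 3. A difference between the C1q chains and these genes was not tested.

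Scavenger receptors and C-type lectins, the families of Cd163, Mrc1 and Cd207, lay lower in 6 and higher in 5 of 11 tested genes (median -0.00), with 0 past the adjusted threshold and 6 more genes of the list under the filter. With arrays centred on the median of the genes tested, 0 lay lower and 11 higher (median 0.092), beside a median of 0.0625 over all genes tested. Without Akita replicate 1 the list had 1 of 11 lower (median 0.17) and 8 wholly higher, where 3906 of the 15528 genes were wholly higher. Without Akita replicate 3 its median was -0.14, with 6 wholly lower, where 43.4% of all genes were. Marco, a scavenger receptor gene, was the 1 gene at an unadjusted p under 0.05 (0.27, adjusted p = 0.365). The collectin gene Colec12 (0.38), Cd36 (0.14) and Mrc2 (0.09) had adjusted p of 0.442, 0.603 and 0.753.

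Genes of heme and iron handling, the pathway downstream of Cd163, lay lower in 6 of 10 (median -0.11), 0 past the adjusted threshold, with 2 lower and 2 higher at an unadjusted p under 0.05. The heme transporter gene Slc48a1 (-0.40) and the biliverdin reductase gene Blvrb (-0.28) lay lower in both Akita arrays, with adjusted p = 0.324 and 0.349. Hp, which encodes haptoglobin, had 5.08, 4.83 and 4.90 in wild type and 5.14 and 6.31 in Akita replicates 1 and 3, with replicate 3 far above the rest (0.79, adjusted p = 0.325). The transferrin receptor gene Tfrc lay at 8.38 and 9.15 against 8.46, 7.88 and 7.84 (0.70, adjusted p = 0.319), with the highest value again in replicate 3.

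Antigen presentation and dendritic cell genes lay lower in 5 of 9 tested genes (median -0.17), with 0 past the adjusted threshold and 3 lower at an unadjusted p under 0.05. Of the 9, 4 lay wholly lower (19.9% of all genes) and 1 wholly higher (9.89%). Cd209a, a C-type lectin of monocyte-derived dendritic cells, lay at 8.35, 8.63 and 8.58 in wild type and at 7.94 and 7.92 in Akita replicates 1 and 3 (-0.59, SE 0.12, adjusted p = 0.139). The class II chains H2-Ab1 (-0.54), H2-Aa (-0.47) and H2-Eb1 (-0.23) had adjusted p of 0.210, 0.221 and 0.450, and their groups did not overlap. The list median turned to 0.033, with 4 of 9 genes lower, without Akita replicate 3, and was -0.26 without Akita replicate 1. Of the dendritic or Langerhans cell genes in the list, Flt3, Itgae, Batf3 and Epcam lay under the filter on dim genes. Zbtb46, Xcr1, Itgax and Cd209a passed it, as did Cd207.

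**Figure D3:**
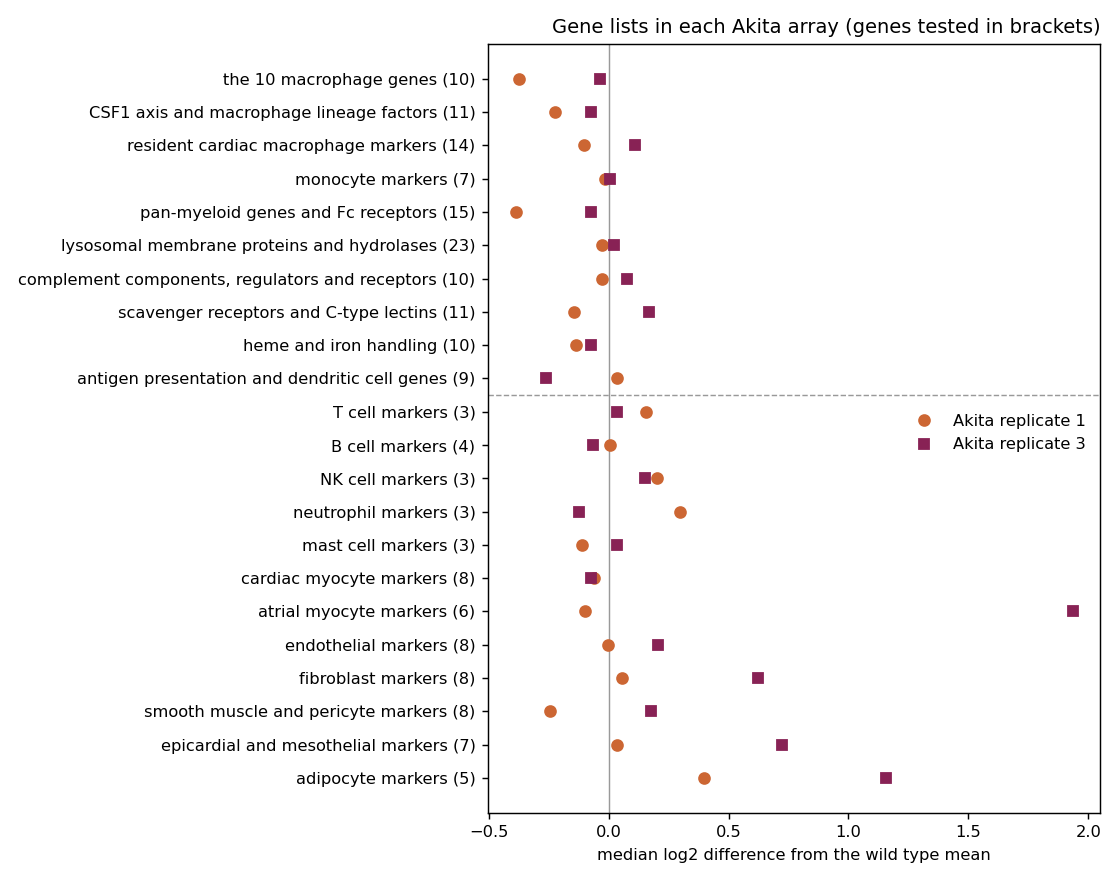
Median log2 difference from the wild type mean over the tested genes of each list, in Akita replicate 1 (circles) and replicate 3 (squares), with the number of tested genes in brackets; lists under the dashed line mark other cell types, and lists with under 3 tested genes are left out. The 10 macrophage genes lie at -0.37 and -0.035, and atrial markers at -0.10 and 1.94.

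Other cell types were read from marker lists, with each list's summed level being the log2 of its summed signals. Genes of the list under the filter are included in that sum, in which the brightest probe sets weigh most. Akita replicate 3 stood apart by atrial myocyte markers, which lay higher in 6 of 6 genes, or in 2 of 6 without that array. Their summed level was 12.14 to 12.26 in wild type and 12.39 to 14.01 in Akita, and Bmp10, an atrial growth factor gene, had 4.63, 4.64 and 5.18 in wild type, 5.71 in Akita replicate 1 and 10.83 in replicate 3. Nppa had its highest value, 13.39, in the same array. In Akita replicate 1 the atrial list had a median of -0.10. There Nppa (12.21) and Bmp10 lay above all wild type arrays, while the other 4 markers lay under the wild type mean. The part of atrial tissue in the Cd68 values was not tested.

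Adipocyte markers lay higher in 5 of 5 tested genes. Their list had summed levels of 7.35 to 7.46 in wild type and 7.87 to 8.68 in Akita. The defining markers Adipoq and Lep, which are in these sums, lay under the filter. Ucp1 had 4.36, 4.21 and 4.17 in wild type and 5.35 and 6.82 in Akita, and Plin1 differed by 0.46. Fibroblast markers lay higher in 7 of 8 genes (12.23 to 12.27 against 12.33 to 12.72), with Lum and Postn at 0.58 and 0.55. Epicardial and mesothelial markers lay higher in 4 of 7 (8.31 to 8.37 against 8.32 to 8.98), Lrrn4 and Msln at 0.53 and 0.64. Their medians without Akita replicate 3 were 0.057 for fibroblast, 0.033 for epicardial and 0.40 for adipocyte markers. The part of these cell types in the macrophage values was not tested.

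Heart muscle markers were bright in all 5 arrays, summed at 15.64 to 15.68 in wild type and 15.60 to 15.61 in Akita, with Myl2 at -0.24 and Mybpc3 at 0.16. Of 8 such markers 6 lay lower (median -0.065), or 3 with arrays centred on the median of the genes tested. The median over all genes tested was 0.0625 with that centring. Both Akita arrays lay under all wild type arrays in 5 of the 8 (19.9% of all genes) and above them in 1 (9.89%). Endothelial markers lay higher in 5 of 8 genes (12.27 to 12.41 against 12.41 to 12.57; Kdr 0.29, Emcn 0.22). Smooth muscle and pericyte markers did so in 5 of 8 (12.33 to 12.38 against 12.28 to 12.50; Rgs5 0.12, Acta2 -0.14), or in 4 with arrays centred on the median of all genes. The counts rested on single arrays: the endothelial list had 4 of 8 lower without Akita replicate 3, and the smooth muscle list 7 of 8 lower without Akita replicate 3 (median -0.25) and 2 of 8 without Akita replicate 1 (0.18). None of these lists, and none of the atrial, adipocyte, fibroblast and epicardial lists, had a gene past the adjusted threshold of limma. Of their 50 tested genes, 12 reached an unadjusted p under 0.05, all higher in Akita. Among all genes 13.6% reached that level, 4.13% higher. The 12 were 5 adipocyte, 3 epicardial, 2 fibroblast and 2 atrial markers.

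Lymphoid, granulocyte and erythroid markers were dim or not analysed here in many cases: of 42 genes in 6 lists, 15 lay under the filter and 9 were not analysed here. T cell markers had 1 of 3 tested genes lower (Cd3e 0.18, Cd4 -0.06), B cell markers 2 of 4 (Cd79a -0.29, Cd79b -0.12) and NK cell markers 0 of 3 (Prf1 0.18, Ncr1 0.13). With quantile normalization again the T cell list had 2 of 3 lower. Neutrophil markers had 0 of 3 lower (Cxcr2 0.25, Mpo 0.09), or 2 of 3 with quantile normalization again, and S100a8, S100a9 and Ly6g, which define these cells, lay under the filter. Mast cell markers had 1 of 3 lower (Tpsb2 -0.13, Cpa3 0.20), and the 2 erythroid markers tested, Bpgm and Slc4a1, differed by -0.23 and 0.23. At an unadjusted p under 0.05 there were 0 genes in these 6 lists, and 0 past the adjusted threshold of limma.

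**Figure D4:**
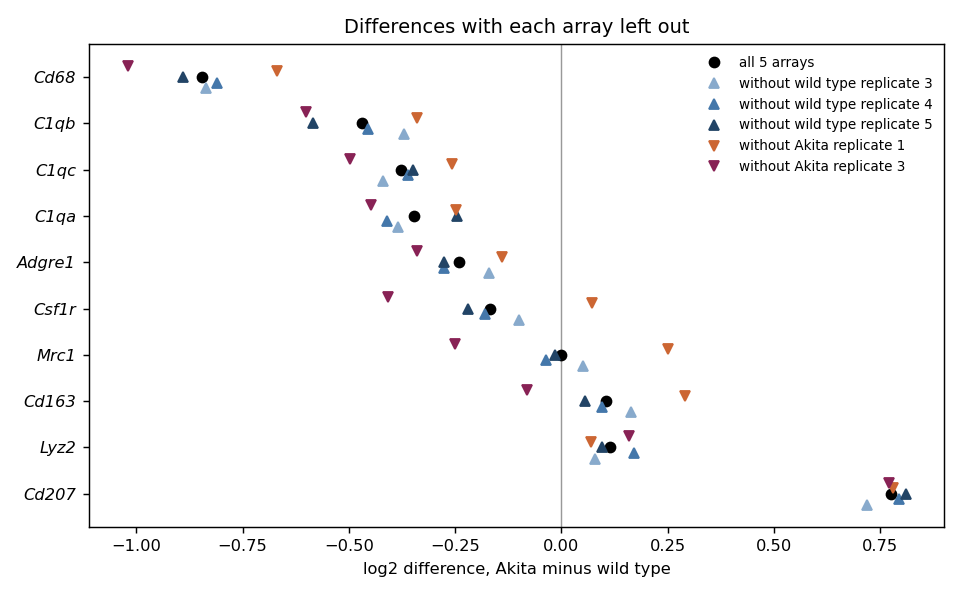
Log2 difference of each gene, Akita minus wild type, with all 5 arrays (black) and with each array left out in turn (triangles). Cd68 stays between -1.02 and -0.67 and Cd207 between 0.72 and 0.81, while Csf1r, Mrc1 and Cd163 take values on both sides of 0.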

How the data were processed

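Biotin-labelled heart RNA (150 ng a sample, Affymetrix whole-transcript kit, per the labels) was read on arrays. The authors deposited 1 log2 signal for each probe set and array, from Affymetrix Expression Console, per the submitters' processing notes. How probes were summarised and arrays normalized is not stated in the sources used here; the log base was read from the range, 1.27 to 13.66. A shift common to most genes would be hidden if arrays were scaled to each other, and leftover background shrinks the differences of dim genes. The platform annotation gave exactly 1 symbol to 23521 of 41345 probe sets.

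The dimmest 30% of genes by mean signal were left out. The groups were compared by limma (version 3.58.1, R 4.3.3; moderated and two-sided, 3 residual and 4.38 prior degrees of freedom, Benjamini-Hochberg over all genes tested), checked on simulated data. No batch is named in the labels. The number of arrays limits the precision. Members and lists were chosen with earlier results of these data known. Named genes were the 10 members, the 4 of smallest unadjusted p in each pathway list, 2 in each marker list and the 5 nearest to Cd68 and to Cd207. Genes named as under or past the filter and flanking genes were chosen after their values were seen. Alternatives were other filters, averaged probe sets, quantile normalization, centring, a robust prior with a trend, array weights and each array left out.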

Additional observations from a re-analysis of the deposited data

How the results depend on the processing

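The count of genes past an adjusted p of 0.05 by limma, 51 (33 higher, 18 lower), was 86 without a filter on dim genes (68 higher, 18 lower), 32 with quantile normalization again, 28 with array weights and 197 with an intensity trend and a robust prior (60 higher, 137 lower). It was 30 with arrays centred on the median of the genes tested (25 higher, 5 lower), an alternative chosen after seeing the data, and 58 (35 higher, 23 lower) when centred on the median of all genes. A filter at the 50th percentile gave 48, split 20 to 28. It was 9 to 44 with an array left out, where fewer arrays were used; the cause of the other shifts was not tested. The median over the 10 macrophage genes ran from -0.373 without Akita replicate 3 to -0.035 without Akita replicate 1. Cd68 (-0.84) passed at adjusted p = 0.0204 with the trend and robust prior, and Cd207 (0.78) at 0.0421 there. Cd207 also passed at 0.0498 with probe sets averaged, where its own values were unchanged. With an array left out, Csf1r ran from -0.407 to 0.073, higher in Akita only without Akita replicate 1, and Cd163 from -0.08 to 0.29, lower only without Akita replicate 3. The other 8 genes kept their direction under the alternatives that gave a value, apart from Mrc1, which has none at 0.00; Cd207 has no value under the filter at the 50th percentile. No paired analysis was possible because the groups share only replicate number 3. With an Akita array left out, the lone Akita array is assumed to vary like the others.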

Other observations

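The genes beside the macrophage genes on their chromosomes, by the order of RefSeq genes, were read after the values of the macrophage genes had been seen. Eif4a1, a translation initiation factor gene that flanks Cd68 on one side, lay at 13.12, 13.15 and 13.20 in wild type and at 13.19 and 13.28 in Akita replicates 1 and 3 (log2 difference 0.08, SE 0.11, adjusted p = 0.794 by limma). Mpdu1, on the other side, lay at 6.87, 7.30 and 7.07 against 6.48 and 7.08 (-0.30, SE 0.20, adjusted p = 0.562). In both neighbours the groups overlapped, unlike in Cd68.

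Lyz1, the lysozyme gene of intestinal Paneth cells that lies next to Lyz2, was dim at 4.21, 4.18 and 4.70 in wild type and lay higher at 4.99 and 5.15 in Akita replicates 1 and 3 (0.71, SE 0.18, adjusted p = 0.186). Clec4f, a C-type lectin gene of liver macrophages beside Cd207, lay at 4.49, 4.68 and 4.58 against 4.92 and 4.71 (0.23, SE 0.12, adjusted p = 0.462). Vav1, a signalling gene of blood cells that flanks Adgre1, lay lower in both Akita arrays, at 4.65 and 5.0 against 5.32, 5.21 and 5.31 (-0.46, SE 0.14, adjusted p = 0.237). Other tested neighbours overlapped between the groups: 9530003J23Rik beside Lyz2 (0.007) and Vax2 beside Cd207 (0.19). So did Pdgfrb (0.013) and Hmgxb3 (-0.21) beside Csf1r, Pex5 beside Cd163 (0.032) and Epha8 beside C1qa (-0.21).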
